A study of Mus musculus with 6 samples.

Results

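The genes described here are 7 genes used as markers of Schwann cells and peripheral nerve, namely Sox10, Mbp, Prx, S100b, Ngfr, Cdh19 and Scn7a. They were chosen by name as markers, with earlier results of these data known, and all 7 were found among the 48440 genes of the raw count table. The question was whether nerve transcripts change along with those of blood vessels when axitinib, an inhibitor of the VEGF receptor tyrosine kinases, is released next to an implant.

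In the study, bone marrow stromal cells of rabbits were grown into engineered cartilage (BEC) over 4 weeks of chondrogenic culture, wrapped in nanofibrous membranes of polycaprolactone and collagen, and placed under the skin of BALB/c nude mice, which lack mature T cells. A pair of constructs of the same group went into each mouse, and the labels do not name the mice, so samples of a group may share an animal and p-values measure only the spread between these samples. In the 0%-Axitinib group (3 samples) the membranes carried no drug, and in the 3%-Axitinib group (3 samples) they carried 3% axitinib by mass. In both groups the mouse tissue entangled with the implants was taken 12 weeks after implantation for RNA sequencing. The labels call the first 3 samples untreated, and they were read as the 0%-Axitinib group from the design text of the series.

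The 0%-Axitinib samples had 17761968, 16716411 and 18005908 reads on genes in replicates 1, 2 and 3, and the 3%-Axitinib samples had 9225518, 11686084 and 18403795. Levels are given as CPM, the reads of a gene relative to the reads of its library on genes that passed the expression filter. These library sizes were scaled by the TMM method. The share of reads that did not map to the mouse genome was 5.47%, 3.84% and 14.9% in the 0%-Axitinib samples and 48.4%, 29.2% and 16.8% in the 3%-Axitinib samples, so the groups did not overlap in it. How many of the reads counted on mouse genes came from rabbit cells was not tested.

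Schwann cells are the glia of peripheral nerves and arise from the neural crest. Myelinating Schwann cells wrap a single large axon in a compact sheath of membrane, whereas non-myelinating Schwann cells hold bundles of thin axons in folds of their surface, and in skin the thin fibres predominate. The cell bodies of the neurons lie in ganglia outside the skin, so most neuronal transcripts are scarce in such tissue while the transcripts of the glia are present.

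A gene was called higher or lower where its fold change was at least 1.5 and the unadjusted p of edgeR's quasi-likelihood test did not exceed 0.05, which is the criterion of the study applied to another test. All 7 nerve genes passed the expression filter. By the criterion 1 of the 7 rose (Ngfr) and 0 fell, while 9.54% of the 15257 tested genes rose and 11.7% fell. With p-values adjusted by Benjamini and Hochberg's method across the 15257 genes, edgeR's test called 0 of the 7 at 0.05, against 0.00655% of all tested genes, and DESeq2's Wald test called 1 (Ngfr), against 12.8% of all tested genes. For 4 of the 7 genes (Sox10, Mbp, Prx and Ngfr) the lowest 3%-Axitinib sample exceeded the highest 0%-Axitinib sample, a pattern seen in 14.7% of all tested genes, and the opposite pattern, seen in 16.6% of all tested genes, was found for 0 of the 7. The median log2 fold change of the 7 genes was 1.19, and that of all tested genes was -0.03. In bulk tissue a change in the number of Schwann cells and a change in the RNA of each cell cannot be told apart.

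The result depended on the 0%-Axitinib samples. Within that group all 7 nerve genes were highest in replicate 1, and 6 of the 7 were lowest in replicate 3. Replicate 3 also stood apart over genes, with Spearman correlations of 0.891 and 0.893 with replicates 1 and 2, which correlated at 0.978. Without 0%-Axitinib replicate 3, 2 of the 7 genes (Sox10 and Ngfr) rose, beside 2274 of 15690 tested genes. The median log2 fold change was then 0.83. Without 0%-Axitinib replicate 1, 4 of the 7 genes (Sox10, Mbp, Prx and Ngfr) rose by the criterion, beside 9.72% of all genes tested without it. The median log2 fold change was then 2.13. The same 4 genes rose with all samples in DESeq2's Wald test, beside 10.7% of all tested genes, and in limma-voom, beside 9.62%.

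Sox10, the transcription factor that specifies and maintains the glia of the peripheral nervous system, lies on chromosome 15 from 79154908 to 79165240 (all positions are on GRCm38). Its level was 24.1, 6.88 and 1.25 CPM in replicates 1, 2 and 3 of the 0%-Axitinib group and 48.8, 32.9 and 36.8 CPM in the 3%-Axitinib replicates. The 3%-Axitinib samples were close to each other and all above the 0%-Axitinib samples, which spread over a wide range, with replicate 3 nearly devoid of the transcript (23 reads). The log2 fold change of Sox10 was 1.87 ± 0.88 (SE; edgeR's quasi-likelihood test, Benjamini-Hochberg adjusted p = 0.245), and the criterion was not met. Without 0%-Axitinib replicate 1 it was 3.28, and without 0%-Axitinib replicate 3 it was 1.34; both values met the criterion.

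Sox10 is also made by melanocytes, and genes of the pigment pathway were measured beside it. The melanin enzymes Tyr, Tyrp1 and Dct stood at no more than 0.261, 0.220 and 0.220 CPM in any sample, and 5 of the 10 melanocyte genes examined had at most 3 reads in every sample. Of the 4 melanocyte genes tested, 0 rose and 1 fell, Mlana, with a log2 fold change of -2.25. The melanocyte gene with the highest level per length, Mitf, is also made by macrophages and other cells, and had a log2 fold change of -0.47 with overlapping groups.

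Mbp (chromosome 18, 82475146 to 82585637) encodes myelin basic protein, which holds the cytoplasmic faces of the myelin membrane together. Its locus also makes the longer golli transcripts in other cells, which gene counts do not separate. Levels of Mbp were 467, 144 and 104 CPM in the 0%-Axitinib replicates and 555, 581 and 492 CPM in the 3%-Axitinib replicates. The 3%-Axitinib samples formed a narrow band above all 0%-Axitinib samples, but 0%-Axitinib replicate 1 came close to that band while the other 0%-Axitinib samples were far below it. Means were 238 ± 199 and 543 ± 45.5 CPM (SD, n = 3 each), with a log2 fold change of 1.19 ± 0.56 (SE; edgeR's quasi-likelihood test, Benjamini-Hochberg adjusted p = 0.250).

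Prx (chromosome 7, 27499324 to 27520214) encodes periaxin, a scaffold that ties the outer membrane of the myelinating Schwann cell to the dystroglycan complex. Its levels were 119, 23.2 and 12.7 CPM in the 0%-Axitinib replicates and 176, 131 and 152 CPM in the 3%-Axitinib replicates. The order of the groups was that of Mbp, with 0%-Axitinib replicate 1 just under the lowest 3%-Axitinib sample and the others several-fold lower. The log2 fold change was 1.56 ± 0.78 (SE; edgeR's quasi-likelihood test, Benjamini-Hochberg adjusted p = 0.268). Prx shares 300 exon bases with an antisense gene, Gm15541, and whether counting used the strand is not given in the sources used here. Gm15541 had between 2 and 19 reads in a sample, and Prx between 233 and 2618.

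S100b (chromosome 10, 76253853 to 76261159) encodes a calcium-binding protein that stains Schwann cells of all kinds, and is also made by cartilage cells and adipocytes. Levels of S100b were 14.1, 2.86 and 8.53 CPM in the 0%-Axitinib replicates and 16.2, 14.6 and 8.40 CPM in the 3%-Axitinib replicates. The groups overlapped, since 3%-Axitinib replicate 3 lay below 0%-Axitinib replicates 1 and 3. The log2 fold change of S100b was 0.61 ± 0.57 (SE; edgeR's quasi-likelihood test, Benjamini-Hochberg adjusted p = 0.535). When samples were dropped singly, the value ranged from 0.19 to 1.19.

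Ngfr (chromosome 11, 95568818 to 95587735) encodes p75, the low-affinity receptor of the neurotrophins, which immature and non-myelinating Schwann cells carry and which myelinating cells regain when they lose their axon. In the 0%-Axitinib replicates it reached 2.77, 1.92 and 0.272 CPM, and in the 3%-Axitinib replicates 19.0, 7.56 and 8.22 CPM. Every 3%-Axitinib sample was well above every 0%-Axitinib sample, and the counts behind the low group were small, at 53, 33 and 5 reads. Ngfr rose by a log2 fold change of 2.80 ± 0.80 (SE; edgeR's quasi-likelihood test, Benjamini-Hochberg adjusted p = 0.122), higher in 3 of 3 treated samples. Its log2 fold change stayed between 2.24 and 3.39 when each sample was left out in turn, and the criterion was met each time. Cells outside nerves can also make p75, and their share of its reads was not tested.

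Cdh19 (chromosome 1, 110888326 to 110977584) encodes a cadherin found on Schwann cells and their precursors. Its levels were 36.3, 12.5 and 2.72 CPM in the 0%-Axitinib replicates and 26.2, 9.84 and 16.9 CPM in the 3%-Axitinib replicates. Unlike the genes above, its highest sample was in the 0%-Axitinib group, and the groups overlapped throughout the range of the 3%-Axitinib samples. The log2 fold change was 0.03 ± 0.83 (SE; edgeR's quasi-likelihood test, Benjamini-Hochberg adjusted p = 0.983). The sign was not stable, as the value turned to -0.11 when libraries were scaled by total counts alone.

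Scn7a (chromosome 2, 66673425 to 66784914) encodes the sodium-sensing channel Nax, which is found in non-myelinating Schwann cells. Levels of Scn7a were 133, 70.4 and 30.6 CPM in the 0%-Axitinib replicates and 119, 81.7 and 53.0 CPM in the 3%-Axitinib replicates. As with Cdh19, the highest and the lowest sample were both in the 0%-Axitinib group and the 3%-Axitinib samples lay between them. The log2 fold change was 0.12 ± 0.54 (SE; edgeR's quasi-likelihood test, Benjamini-Hochberg adjusted p = 0.909), and -0.02 with libraries scaled by total counts alone. That scaling moved the median of all tested genes by -0.13 and the split of calls from 1456 higher and 1785 lower (44.9% higher) to 989 higher and 2448 lower (28.8% higher); the log2 fold changes of the other 5 nerve genes stayed above 0 under it, between 0.47 for S100b and 2.67 for Ngfr.

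**Figure D1:**
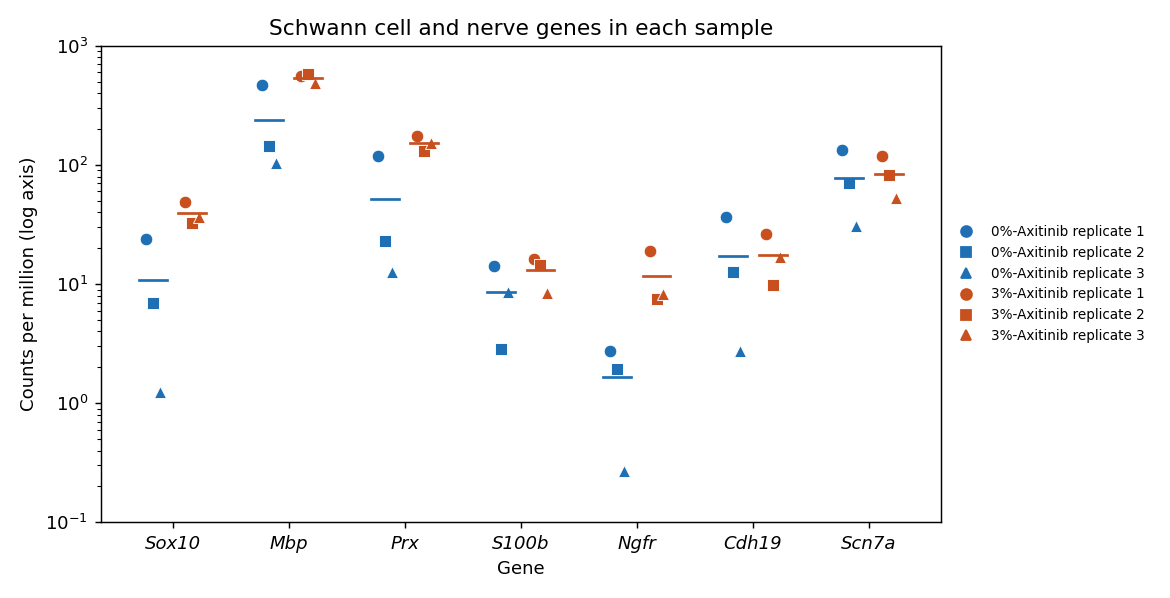
Level of each of the 7 Schwann cell and nerve genes in every sample, in CPM on a log axis, with blue points for the 0%-Axitinib samples, orange points for the 3%-Axitinib samples and a short line at each group's mean. All orange points lie above all blue points for Sox10, Mbp, Prx and Ngfr, and the groups overlap for S100b, Cdh19 and Scn7a.

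The 0%-Axitinib samples differed from each other far more than the 3%-Axitinib samples did. The highest 0%-Axitinib sample exceeded the lowest by 19.3-fold for Sox10, 13.4-fold for Cdh19, 10.2-fold for Ngfr and 9.44-fold for Prx. For S100b, Mbp and Scn7a the same ratio was 4.95, 4.48 and 4.35. In the 3%-Axitinib group it ran from 1.18 for Mbp to 2.66 for Cdh19. All 7 genes were highest in replicate 1 within the 0%-Axitinib group, and 6 of the 7 were lowest in replicate 3, the exception being S100b, which was lowest in replicate 2.

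Levels of different genes were compared as CPM per kb of exon. In the 0%-Axitinib group the mean levels per kb were 28.1 for Mbp, 10.6 for Scn7a, 9.28 for Prx, 5.73 for S100b, 4.02 for Cdh19, 3.52 for Sox10 and 0.480 for Ngfr. Mbp stood above Scn7a in each of these samples and Ngfr was the lowest in each, but neighbours in between (Scn7a and Prx, Prx and S100b, S100b and Cdh19) changed places from sample to sample. In the 3%-Axitinib group the means per kb were 64.1 for Mbp, 27.4 for Prx, 12.9 for Sox10, 11.5 for Scn7a, 8.79 for S100b, 4.12 for Cdh19 and 3.37 for Ngfr. This order held in each 3%-Axitinib sample except between Sox10 and Scn7a, which were nearly level in replicates 1 and 2. Sox10 thus stood below Cdh19 in each 0%-Axitinib sample and above it in each 3%-Axitinib sample.

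The ratio of a pair of genes within a sample does not depend on library size. All 21 pairs of the 7 genes were compared in this way, as a description, after their levels had been seen. An exact permutation test over samples was run on each pair. It cannot give a p below 0.1 for 3 samples against 3, so no conclusion is drawn from it. The ratio of Sox10 to Cdh19, in reads per kb of exon, was 0.931, 0.770 and 0.645 in the 0%-Axitinib replicates and 2.62, 4.69 and 3.05 in the 3%-Axitinib replicates. The groups were separate and each was narrow, although either gene alone varied by more than 10-fold among the 0%-Axitinib samples. The ratio of Ngfr to Cdh19 was 0.0946, 0.191 and 0.124 in the 0%-Axitinib replicates and 0.903, 0.955 and 0.604 in the 3%-Axitinib replicates. The ratio of Prx to Cdh19 was 2.52, 1.42 and 3.57 in the 0%-Axitinib replicates and 5.16, 10.2 and 6.88 in the 3%-Axitinib replicates. Relative to Cdh19, the transcription factor, the receptor and the myelin scaffold were thus all higher in every 3%-Axitinib sample, but Mbp was not: its ratio to Cdh19 was 6.50, 5.80 and 19.4 in the 0%-Axitinib replicates and 10.7, 29.8 and 14.7 in the 3%-Axitinib replicates, with overlap.

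With Scn7a as the reference, the groups were separate for Mbp as well as for Sox10, Prx and Ngfr. The ratio of Sox10 to Scn7a was 0.436, 0.235 and 0.0983 in the 0%-Axitinib replicates and 0.985, 0.968 and 1.67 in the 3%-Axitinib replicates. The ratio of Mbp to Scn7a was 3.04, 1.77 and 2.95 in the 0%-Axitinib replicates and 4.03, 6.16 and 8.04 in the 3%-Axitinib replicates. In contrast, the ratio of Cdh19 to Scn7a (0.469, 0.305 and 0.152 against 0.376, 0.206 and 0.547) and that of Sox10 to Ngfr (9.85, 4.04 and 5.20 against 2.90, 4.91 and 5.05) overlapped between the groups. Of the 21 pairs, 9 did not overlap between the groups; 11 of the 21 contain Cdh19 or Scn7a, and 7 of those 11 did not overlap. Cdh19 and Scn7a were singled out after their levels had been seen. The share among pairs of other genes was not examined, so these counts only describe the pairs compared here.

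**Figure D2:**
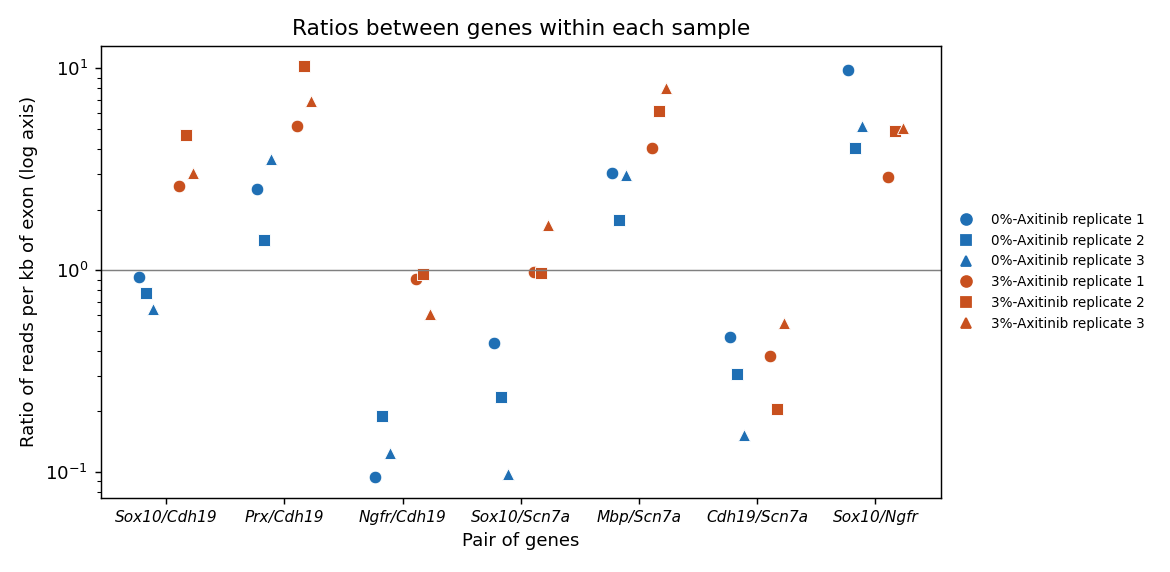
Ratios of reads per kb of exon between pairs of nerve genes within each sample, on a log axis, with blue points for the 0%-Axitinib and orange points for the 3%-Axitinib samples; the grey line marks equal levels. The groups are separate for the first 5 pairs, which set Sox10, Prx, Ngfr or Mbp against Cdh19 or Scn7a, and overlap for Cdh19/Scn7a and Sox10/Ngfr.

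Most of the blood vessel genes fell, beside 11.7% of all tested genes. Of the 7 nerve genes 0 fell, which for so few genes is not far from that share. Of 24 endothelial genes, 0 rose and 19 fell by the criterion, and the median log2 fold change was -1.33. In 18 of them every 3%-Axitinib sample was below every 0%-Axitinib sample, a pattern seen in 16.6% of all tested genes. The 4 vessel genes named by the study all fell: the adhesion molecule Pecam1 by 1.61 on the log2 scale, the junctional cadherin Cdh5 by 2.37, the VEGF receptor Kdr by 2.16 and the Notch receptor Notch4 by 2.29. Plvap, the endothelial gene with the highest level per length, had a log2 fold change of -0.39 with overlapping groups.

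Set side by side, the 7 nerve genes summed to 797, 262 and 160 CPM in the 0%-Axitinib replicates and to 960, 859 and 767 CPM in the 3%-Axitinib replicates. The 24 endothelial genes summed to 1879, 1219 and 1807 CPM in the 0%-Axitinib replicates and to 604, 888 and 919 CPM in the 3%-Axitinib replicates. The nerve sum overlapped between the groups through 0%-Axitinib replicate 1, while the vessel sum did not overlap. Mbp made up between 55.0% and 67.7% of the nerve sum in a sample. Within the 0%-Axitinib group replicate 1 had both the highest nerve sum and the highest vessel sum. Replicate 3, in contrast, had the lowest nerve sum and nearly the highest vessel sum. The ratio of Sox10 to Pecam1, in reads per kb of exon, was 0.196, 0.0981 and 0.0104 in the 0%-Axitinib replicates and 1.96, 0.881 and 0.917 in the 3%-Axitinib replicates.

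**Figure D3:**
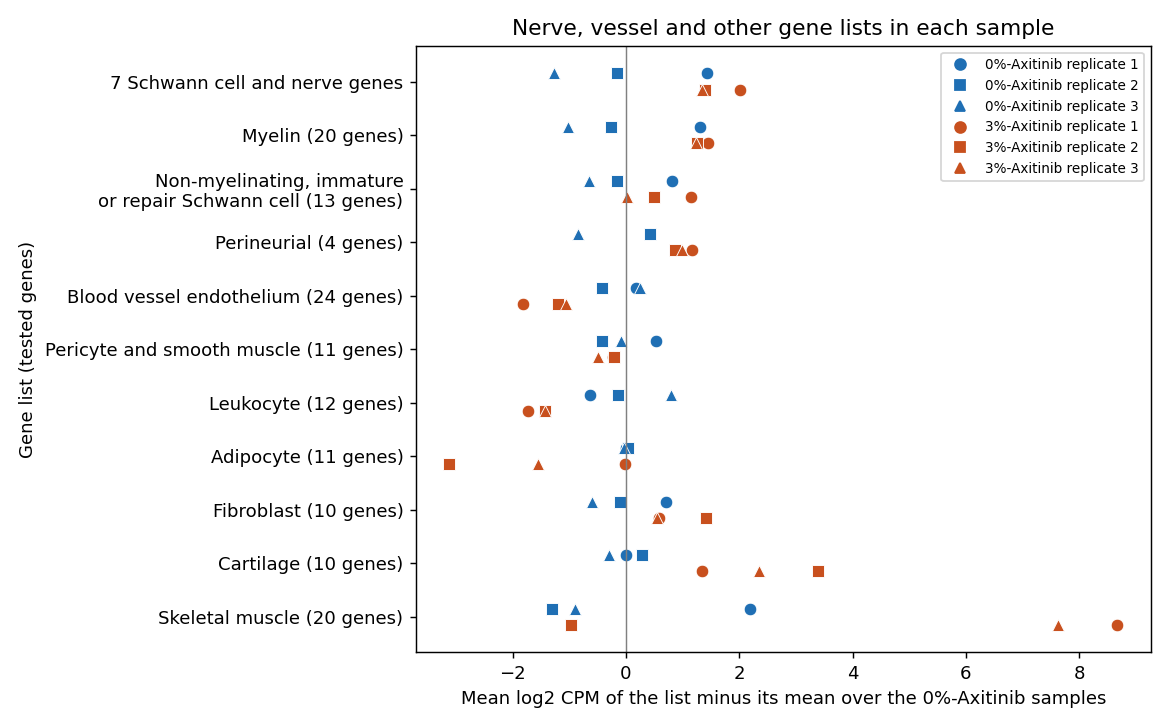
Mean log2 CPM of each gene list in each sample, minus the list's mean over the 0%-Axitinib samples, with blue points for the 0%-Axitinib and orange points for the 3%-Axitinib samples; the number of tested genes is in parentheses. The 7 nerve genes stand at 2.01, 1.39 and 1.34 in the 3%-Axitinib samples with 0%-Axitinib replicate 1 at 1.43, whereas the endothelial genes stand between -1.81 and -1.06 in the 3%-Axitinib samples.

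Other genes of nerve were examined in 6 lists. Together they held 77 genes, of which 56 were tested. Of these 7 rose and 2 fell, beside 9.54% and 11.7% of all tested genes. In 14 every 3%-Axitinib sample was above every 0%-Axitinib sample, a pattern seen in 14.7% of all tested genes. The median log2 fold change of the 56 genes was 0.80. The same shares of all tested genes stand beside edgeR's counts for each of these lists below.

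Among 20 tested genes of myelinating Schwann cells, 4 rose and 1 fell in edgeR's test, 7 rose and 2 fell in DESeq2's Wald test, and 11 rose and 1 fell in limma-voom. The median log2 fold change was 1.22. Those that rose in edgeR's test included Ncmap, a protein of non-compact myelin, by 2.22, Pllp, the membrane protein plasmolipin, by 1.83, and Cnp, an enzyme of the myelin cytoplasm, by 1.02, all as log2 fold changes. Ncmap was at 12.1, 5.31 and 1.52 CPM in the 0%-Axitinib replicates and at 26.9, 25.6 and 35.3 CPM in the 3%-Axitinib replicates. The groups did not overlap, and Ncmap repeated the order of the 0%-Axitinib samples found for Sox10, with replicate 1 the highest and replicate 3 the lowest. Without 0%-Axitinib replicate 1, 14 myelin genes rose. Without 0%-Axitinib replicate 2 or 3%-Axitinib replicate 1, 2 did, and without 3%-Axitinib replicate 3, 1 did. Over all tested genes, in the same order of samples left out, 1542 of 15868, 1055 of 15871, 1057 of 15878 and 1128 of 15890 rose.

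The myelin gene that fell was Pou3f1, a transcription factor of Schwann cells that have not yet formed myelin, which is also made in epidermis. Its levels stood at 8.20, 20.9 and 5.87 CPM in the 0%-Axitinib replicates and at 3.74, 2.37 and 2.37 CPM in the 3%-Axitinib replicates, a log2 fold change of -2.05. Its highest sample, 0%-Axitinib replicate 2, was also the one in which 12 epidermal genes summed to 919 CPM, against between 8.56 and 27.7 CPM in the other samples. The part of epidermis in this result was not tested. With 0%-Axitinib replicate 2 left out, Pou3f1 still fell by the criterion. Krt10, the epidermal gene with the highest level per length, was at 222 CPM in that sample and at no more than 6.47 CPM elsewhere. Pmp22, a membrane protein of compact myelin and the myelin gene with the highest level per length, was at 583, 418 and 133 CPM in the 0%-Axitinib replicates and at 691, 755 and 599 CPM in the 3%-Axitinib replicates, and its log2 fold change of 0.85 did not meet the criterion.

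Among 13 tested genes of non-myelinating, immature or repair Schwann cells, 0 rose and 0 fell, and the median log2 fold change was 0.43. None of them had an unadjusted p of at most 0.05 in edgeR's test, and the criterion was met by 0 of them in DESeq2's Wald test and in limma-voom as well. Without 0%-Axitinib replicate 1, 4 of 14 tested genes of this list rose. L1cam, an adhesion molecule of unmyelinated fibres and the gene of this list with the highest level per length, was at 74.7, 57.3 and 34.8 CPM in the 0%-Axitinib replicates and at 54.9, 60.0 and 39.6 CPM in the 3%-Axitinib replicates. Its groups overlapped, with a log2 fold change of -0.11.

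Of 19 genes of neurons and axons, 5 passed the expression filter and 4 had at most 3 reads in every sample, a count that corresponds to between 0.157 and 0.330 CPM. By the criterion 2 of the 5 rose and 0 fell in edgeR's test, and 3 rose and 0 fell in DESeq2's Wald test and in limma-voom. The median log2 fold change was 1.01. Npy, a peptide of sympathetic fibres that other cells also make, was at 45.8, 77.4 and 52.7 CPM in the 0%-Axitinib replicates and at 159, 83.2 and 111 CPM in the 3%-Axitinib replicates, and rose by a log2 fold change of 1.01. Prph, an intermediate filament of peripheral neurons, was at 1.20, 0.525 and 0.706 CPM in the 0%-Axitinib replicates and at 3.41, 2.00 and 1.97 CPM in the 3%-Axitinib replicates, a rise of 1.58 on the log2 scale at a low level. Without 3%-Axitinib replicate 1, 0 of the axon genes rose, and without 0%-Axitinib replicate 2, 1 did.

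Of 6 tested neurotrophic factors and neuregulin, 0 rose and 0 fell in edgeR's test, in DESeq2's Wald test and in limma-voom, and the median log2 fold change was -0.10. Nrtn, the one with the highest level per length, ranged from 0.418 to 3.50 CPM over the samples. Of 8 receptors of these factors, 1 rose and 1 fell, with a median log2 fold change of 0.71. Both counts were near the shares of all tested genes, of which 9.54% rose and 11.7% fell. Erbb2, the partner of Erbb3 in the neuregulin receptor, was at 21.3, 12.1 and 10.5 CPM in the 0%-Axitinib replicates and at 36.3, 26.0 and 29.4 CPM in the 3%-Axitinib replicates, and rose by a log2 fold change of 1.06 without overlap of the groups. Sort1, the sorting receptor sortilin that pairs with p75 and is widely made outside nerve, was at 53.0, 128 and 121 CPM in the 0%-Axitinib replicates and at 39.3, 22.4 and 56.0 CPM in the 3%-Axitinib replicates, and fell by 1.36 on the log2 scale. Its groups overlapped slightly, and the direction was opposite to that of Ngfr. Without 3%-Axitinib replicate 1, neither Erbb2 nor Sort1 met the criterion, and Sort1 also missed it without 0%-Axitinib replicate 2.

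Of 4 tested perineurial genes, which mark the sheath around nerve bundles, 0 rose and 0 fell in edgeR's test, 2 rose in DESeq2's Wald test and 1 in limma-voom. The median log2 fold change was 0.83. Slc2a1, the glucose transporter GLUT1 of the perineurium and of other cells, was at 100, 161 and 43.1 CPM in the 0%-Axitinib replicates and at 170, 75.4 and 168 CPM in the 3%-Axitinib replicates, with overlapping groups.

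The genes whose pattern over the 6 samples was most like that of each nerve gene were taken from 14342 genes by the root mean square difference of log2 CPM centred on each gene's mean. For Prx the nearest included Drp2 (0.18), from the myelin list, and Hepacam (0.23). For Sox10 they were Sbspon (0.20), Fa2h (0.27) and Sap30bpos (0.29), and Prx and Ngfr came at places 11 and 14. For Ngfr they included Hspb7 (0.42) and Masp1 (0.47), with Sox10 at place 7. Prx and Sox10 thus each had a gene of the myelin list among their 3 nearest. For Mbp they were Greb1 (0.16), Gal3st1 (0.18) and Mrgprf (0.20). Its nearest gene of the nerve lists was Dhh, at place 36.

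The other 3 genes had other neighbours. For Cdh19 the nearest were Grik3 (0.22), Lyve1 (0.24) and 9330159F19Rik (0.24), and the nearest genes of the nerve lists were Erbb3, at place 53, and Foxd3, at place 59. For Scn7a the nearest were Stard13 (0.18), Etv1 (0.19) and Dlgap1 (0.20), with Erbb3 at place 22. Cdh19 came at place 2226 for Scn7a and Scn7a at place 119 for Cdh19, with the same difference of 0.63. For S100b they were Sema5a (0.23), Egfl8 (0.26) and the smooth muscle actin Acta2 (0.26), and Sox10 and Ngfr were among the farthest, at places 13396 and 13473. The measure is not scaled to how much a gene varies. Sox10 and Ngfr were also far from Scn7a, at places 12909 and 13113. S100b came at place 2374 for Sox10 and 3130 for Ngfr. The nearest genes of the nerve lists to S100b were Gap43, at place 7, and the myelin gene Cnp, at place 65.

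Markers of other tissues also differed between the samples. The skeletal muscle genes, 18 of 20 of which rose in edgeR's test and 0 in limma-voom, summed to 194, 24.1 and 27.5 CPM in the 0%-Axitinib replicates and to 17918, 28.1 and 10035 CPM in the 3%-Axitinib replicates. The sum in 3%-Axitinib replicate 2 was close to those of 0%-Axitinib replicates 2 and 3. Acta1, the muscle actin, was at 0.0911 CPM in that sample and at 3924 and 1852 CPM in the other 3%-Axitinib replicates. Within the 0%-Axitinib group, replicate 1 was the highest both in the muscle sum and in all 7 nerve genes. Replicate 2 of that group had a slightly lower muscle sum than replicate 3 but a higher nerve sum (262 against 160 CPM). The 7 nerve genes summed to 859 CPM in 3%-Axitinib replicate 2, beside 960 and 767 CPM in the other 3%-Axitinib replicates. The part of muscle in the nerve gene levels was not tested.

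Of 10 tested cartilage genes 7 rose and 0 fell, with sums of 329, 214 and 230 CPM in the 0%-Axitinib replicates and 356, 1619 and 700 CPM in the 3%-Axitinib replicates. Comp, the cartilage gene with the highest level per length, had a log2 fold change of 0.69 with overlapping groups. Of 11 adipocyte genes 0 rose and 2 fell (median log2 fold change -1.13), and Fabp4, the most abundant per length, fell by 1.22 on the log2 scale. Without 3%-Axitinib replicate 1, 8 adipocyte genes fell and the median was -2.88, and in limma-voom with all samples 7 fell. Without 3%-Axitinib replicate 2 the median was -0.55 and 2 adipocyte genes rose, and without 0%-Axitinib replicate 2, 1 rose. Of 11 genes of pericytes and smooth muscle 0 rose and 4 fell (median log2 fold change 0.05), with Tagln at -0.07; of 10 fibroblast genes 2 rose and 0 fell (median log2 fold change 0.87), with Col1a1 at 1.79. Of 12 leukocyte genes 0 rose and 5 fell (median log2 fold change -1.05), with Cd68 at 0.20, and of 6 epidermal genes 0 rose and 1 fell (Krt10, -3.93). These counts also moved when samples were dropped singly, to between 12 and 20 for muscle genes that rose, 0 and 3 for fibroblast genes that rose (0 without 0%-Axitinib replicate 2 or 3 or 3%-Axitinib replicate 2), 3 and 8 for leukocyte genes that fell (3 without 3%-Axitinib replicate 3 and 8 without 0%-Axitinib replicate 1) and 0 and 3 for epidermal genes that fell. The median of the epidermal list turned from -1.48 to 0.97 without 0%-Axitinib replicate 2. The part of these tissues in the levels of the nerve genes was not tested.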

How the data were processed

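RNA from mouse tissue around the implants was sequenced in 3 samples of each group. The table that the authors deposited holds raw counts of reads for each gene; the submitters' processing notes name STAR 2.5.2b and GRCm38 (mm10). The annotation release and strand setting are not given in the sources used here. The 4 lines of reads given to no gene were kept out of library sizes. The 7 genes were taken by symbol, and the members and lists were chosen with earlier results of these data known. Genes passing filterByExpr (10 reads, total 15) were fitted by group in edgeR 4.0.16 (R 4.3.3) with TMM factors and the quasi-likelihood test, and p-values were adjusted by Benjamini-Hochberg over all tested genes. Log2 CPM used a prior count of 2. Exon lengths and positions came from GENCODE annotation of GRCm38. Scripts were tested on simulated data. Depth ranged from 9225518 to 18403795 reads on genes, so that 3 reads were worth 0.157 to 0.330 CPM, a floor for counting error only. Of 212 list genes, 210 were in the table. Genes were named by rule: all 7; the most abundant tested gene per kb of each other list; genes of the 6 nerve lists that met the criterion with a mean of at least 1 CPM; 4 vessel genes; and the 3 nearest in pattern to each of the 7. Some genes that this rule takes are not reported here. Alternatives were DESeq2 1.42.0 size factors and Wald test, total counts, TMM without muscle genes, limma-voom (limma 3.58.1), other filters, thresholds and prior count, a replicate block, and leaving out each sample.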

Additional observations from a re-analysis of the deposited data

How the results depend on the processing

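Of the 7 nerve genes, Sox10, Mbp, Prx, S100b and Ngfr kept a log2 fold change above 0 under every alternative that gave a value. Cdh19 turned to -0.11 with total counts and -0.016 with no expression filter, and Scn7a to -0.019 with total counts. With samples left out in turn the values ran from -0.48 to 1.20 for Cdh19, -0.27 to 0.74 for Scn7a, 0.83 to 2.13 for Mbp, 1.10 to 3.09 for Prx, 1.34 to 3.28 for Sox10, 0.19 to 1.19 for S100b and 2.24 to 3.39 for Ngfr. Mbp, Prx and Sox10 met the criterion in DESeq2's Wald test (1.19, 1.56 and 1.88) and in limma-voom (1.51, 2.21 and 2.68), and Sox10 also with no expression filter (1.82); the cause was not tested. The number of the 7 that rose was 1 in edgeR, 4 in DESeq2 and in limma-voom and 2 with no expression filter. It was 0 at an adjusted p of 0.05 in edgeR and 0 with at least 10 counts in every sample, where Ngfr was not tested. With samples left out it was 1 to 4. Of all tested genes, 1610 of 26823 rose with no expression filter and 1271 of 13035 with at least 10 counts in every sample. The median of the 7 ranged from 0.83 to 2.13 with samples left out, and that of the endothelial list from -1.55 to -1.23. Myelin genes that rose numbered 4 in edgeR, 7 in DESeq2, 11 in limma-voom, 6 with no filter, 3 with total counts and 1 to 14 with samples left out; those that fell numbered 1, and 2 in DESeq2 and with no filter, 1 to 2 with samples left out. Axon genes that rose numbered 2 in edgeR, 3 in DESeq2 and in limma-voom, 4 with no filter, 1 with at least 10 counts in every sample and 0 to 3 with samples left out, and those that fell 0 to 1. Perineurial genes that rose numbered 0, 2 in DESeq2, 1 in limma-voom, 2 with no filter and 0 to 1 with samples left out. With samples left out, non-myelinating genes that rose ranged from 0 to 4 and that fell from 0 to 1, neurotrophic factors that rose from 0 to 1, and their receptors that rose from 0 to 3 and that fell from 0 to 1. Over all tested genes, 1 passed an adjusted p of 0.05 in edgeR, 1960 in DESeq2, 2 in limma-voom, 15 with no filter and 0 to 1252 with samples left out, and 1456 rose by the criterion, or 1055 to 2274 with samples left out.

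Same-numbered samples of the groups did not deviate together (r = 0.18, -0.12 and -0.17 over genes for numbers 1, 2 and 3), so the numbers were not taken as pairs. With the replicate number as a block, 4 of the 7 genes rose (Mbp 1.52, Prx 2.23, Sox10 2.59 and Ngfr 3.07 on the log2 scale), beside 1249 of the 15257 tested genes, as did 11 myelin, 1 non-myelinating, 3 axon, 1 receptor and 2 perineurial genes and 0 neurotrophic factors, while 1 myelin and 1 receptor gene fell, and 2 genes of all tested passed an adjusted p of 0.05.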
